A study of Homo sapiens with 6 samples.

Results

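The aminoacyl-tRNA synthetases are the enzymes that join each amino acid to its tRNA. The members described here are 38 human genes: 19 cytosolic synthetase genes, 16 mitochondrial synthetase genes, and 3 genes for scaffold proteins that hold a group of the cytosolic enzymes together (AIMP1, AIMP2 and EEF1E1). They were chosen by gene symbol from the 38557 symbols of the deposited tables, and all 38 were found, VARS1 under its older symbol VARS. The list was put together after cytosolic synthetases had been seen among the lowered genes of these same libraries, so the differences between the groups given below are a description, and the counts of genes called support nothing on their own. The libraries are poly(A) RNA-seq of T-24, an established line of epithelial cells derived from a bladder cancer. Cells were kept for 48 h with CCT068127 at 1 µM (3 libraries) or with its vehicle DMSO (3 libraries, labelled wild type), and every library came from this 1 line. CCT068127 is a small molecule known to block CDK2 and CDK9, kinases of the cell cycle and of transcription elongation. The study's design text calls the replicates biological and independent.

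A synthetase selects its amino acid, activates it with ATP and transfers it to the matching tRNA, which then carries it to the ribosome. Human cells keep separate nuclear genes for the cytosolic and the mitochondrial enzyme of most amino acids, and the mitochondrial proteins are made in the cytosol and imported. GARS1 and KARS1 are exceptions, since each of them encodes both the cytosolic and the mitochondrial form, and EPRS1 carries the glutamate and the proline enzyme in a single chain. In animal cells several cytosolic enzymes sit with the scaffold proteins in the multisynthetase complex. Many cytosolic synthetase genes are textbook targets of ATF4, a transcription factor of the integrated stress response that binds the C/EBP-ATF response element.

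DMSO replicates 1 and 2 held 371044040 and 411097626 counts, and the other 4 libraries between 1966742 (CCT068127 replicate 2) and 5955296 (DMSO replicate 3). Values per library are TMM-scaled CPM, which compares 1 gene between libraries, and TPM as the authors deposited it, which is per transcript length and is used where genes are compared with each other. All 38 members passed the low-count filter that left 13597 genes. The lowest count of any member was 5, for SARS2 in CCT068127 replicate 2 (exact 95% interval 1.62 to 11.7, counting error only). A gene is said to have risen or fallen where its adjusted p was under 0.05 in edgeR's quasi-likelihood test over all genes, which was so for 64.7% of them. The median log2 fold change of all tested genes was -0.05 with TMM, -0.36 when only library totals were used, and -0.46 for limma on log2(TPM + 1), so the direction of a small change can depend on the scaling. The split of calls moved with it, from 4333 higher and 4460 lower to 3006 and 6567 with library totals and 2476 and 7475 on log2(TPM + 1). Of 6 epithelial markers 5 had a mean of at least 1 TPM, CDH1 being the exception. The summed level of 6 markers of blood, endothelial and liver cells was between 2.95 and 6.18 TPM in every library. EPCAM, at 2.67 to 5.71 TPM, was near that sum, and the keratins KRT7, KRT8, KRT18 and KRT19 were far above it.

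With TMM, the cytosolic enzymes were mostly lower in CCT068127-treated cells and the mitochondrial enzymes mostly were not. Of the 19 cytosolic enzymes 12 fell, 3 rose and 4 did not pass, beside 32.8% of all tested genes that were called lower and 31.9% that were called higher. Of the 16 mitochondrial enzymes 4 fell, 1 rose and 11 did not pass. The median log2 fold change was -0.71 for the cytosolic and -0.03 for the mitochondrial enzymes. Set against the median of all tested genes in the same fit, these medians were -0.66 and 0.02 with TMM, -0.66 and 0.02 with library totals, and -0.72 and -0.08 on log2(TPM + 1) values. In TMM-scaled CPM, the CCT068127 libraries lay entirely below the DMSO libraries for 13 cytosolic and 5 mitochondrial enzymes, beside 36.0% of all tested genes. They lay entirely above them for 3 and 2, beside 33.3%. In TPM they lay entirely below for all cytosolic enzymes but FARSB, KARS1 and VARS1, and for all mitochondrial enzymes but TARS2. The share of all genes was not counted in TPM, so the contrast in overlap between the compartments depends on the unit.

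**Figure D1:**
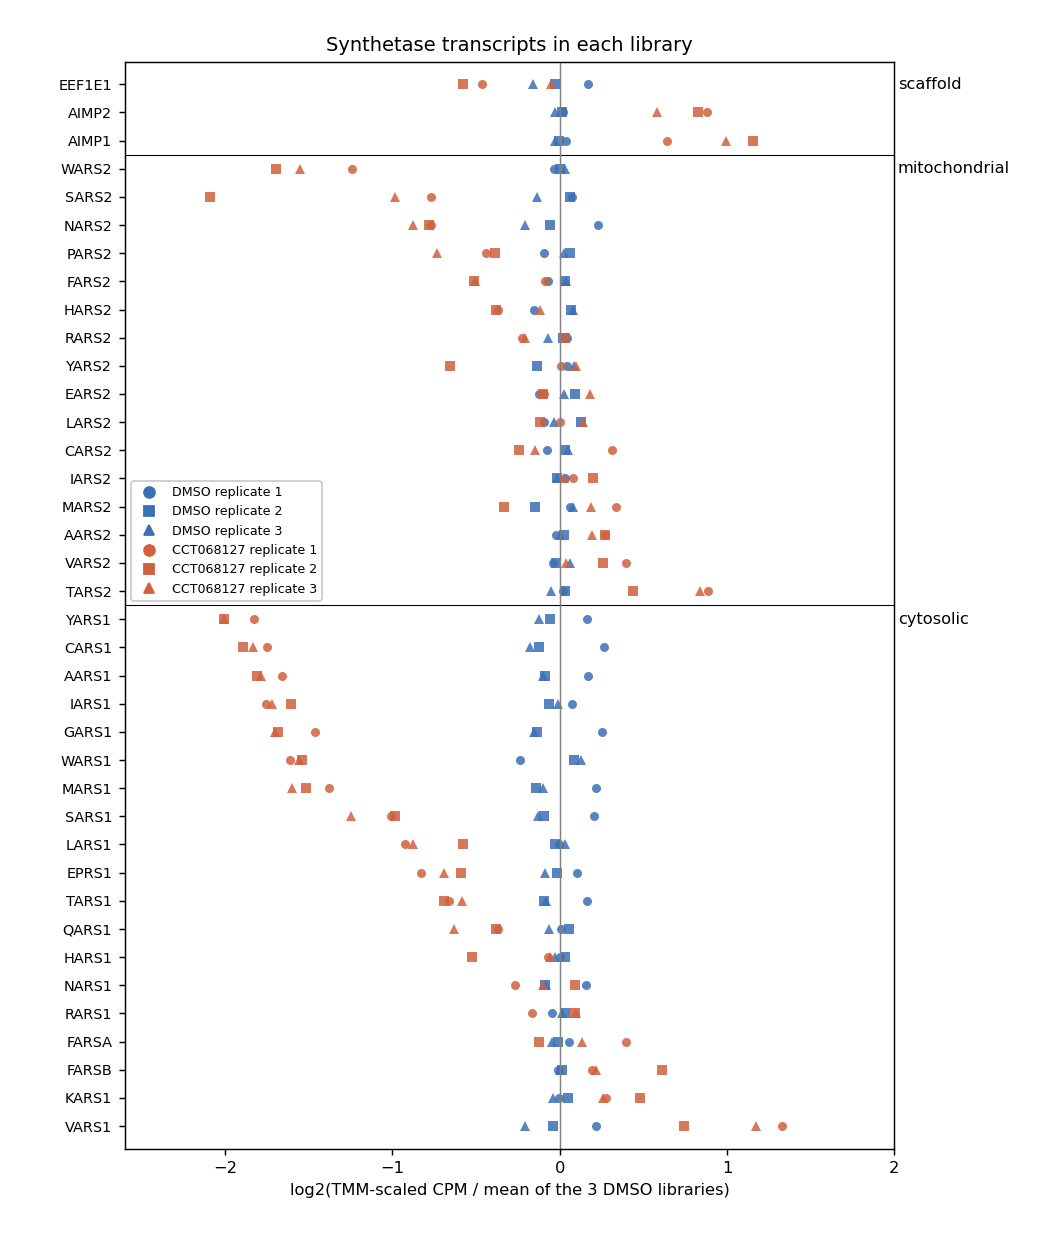
Level of each of the 38 members in each of the 6 libraries, as log2 of TMM-scaled CPM over the mean of the 3 DMSO libraries (x axis). Colours mark DMSO and CCT068127 and symbols mark replicates 1 to 3. In the cytosolic block 8 genes sit at or below -1 in the CCT068127 libraries apart from 1 point of SARS1 just above it, whereas most mitochondrial genes lie around 0.

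The share of all TPM taken by the cytosolic enzymes was 0.365%, 0.320% and 0.323% in DMSO replicates 1 to 3 and 0.136%, 0.139% and 0.135% in CCT068127 replicates 1 to 3, a ratio of the means of 2.46. The groups did not overlap. The mitochondrial enzymes together took 0.0410%, 0.0396% and 0.0398% in DMSO, and 0.0272%, 0.0251% and 0.0261% in CCT068127, a ratio of 1.54. The median tested gene was lower in this unit as well (log2 fold change -0.46 on log2(TPM + 1) values), and neither ratio is corrected for that. A share of TPM does not give the amount of RNA per cell. In such bulk samples, a lower share within cells and fewer cells that express a gene cannot be told apart. The mean log2 CPM of the cytosolic enzymes minus that of the mitochondrial enzymes, a difference within a library in which scaling cancels, was 3.11, 2.96 and 2.94 in DMSO and 2.39, 2.63 and 2.44 in CCT068127. Treated minus DMSO, this was -0.51 (SE 0.09), and the groups did not overlap.

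At least 2-fold lower were 8 cytosolic enzymes, beside 12.9% of all tested genes. YARS1, the tyrosine enzyme (chromosome 1, 32775239 to 32817358, GRCh38), was at 339.6, 291 and 278 CPM in DMSO replicates 1 to 3 and at 85.2, 75.4 and 75.5 CPM in CCT068127 replicates 1 to 3. Its log2 fold change of -1.94 ± 0.12 (SE) was the lowest of all members. CARS1, the cysteine enzyme (chromosome 11, 3000929 to 3057423), was at 283, 216 and 208 CPM in DMSO and 69.9, 63.4 and 66.0 CPM in CCT068127, a log2 fold change of -1.82 ± 0.14. In both genes the treated libraries lay close together and far below the lowest DMSO library. AARS1, the alanine enzyme (chromosome 16, 70252298 to 70289506), was at 475, 398 and 395 CPM in DMSO and 134, 121 and 122 CPM in CCT068127 (-1.75 ± 0.11). IARS1, the isoleucine enzyme (chromosome 9, 92210207 to 92293697), was at 388, 353 and 367 CPM in DMSO and 109, 121 and 112 CPM in CCT068127 (-1.70 ± 0.10). IARS1 had the narrowest DMSO spread of these genes relative to its level.

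GARS1, the glycine enzyme of both compartments (chromosome 7, 30594735 to 30634033), was at 347, 265 and 262 CPM in DMSO and 106, 90.8 and 89.7 CPM in CCT068127, a log2 fold change of -1.61 ± 0.14. WARS1, the tryptophan enzyme (chromosome 14, 100333790 to 100376327), was at 289, 362 and 372 CPM in DMSO and 111, 117 and 116 CPM in CCT068127 (-1.57 ± 0.12). WARS1 is also known as an interferon-inducible gene, and it was the 1 gene of these 8 whose DMSO replicate 1 was the lowest of its group. MARS1, the methionine enzyme (chromosome 12, 57488068 to 57516652), was at 319, 249 and 256 CPM in DMSO and 105, 96.0 and 90.4 CPM in CCT068127 (-1.50 ± 0.12). SARS1, the serine enzyme (chromosome 1, 109213893 to 109238182), was at 375, 304 and 297 CPM in DMSO and 161, 165 and 137 CPM in CCT068127 (-1.08 ± 0.12). For none of the 8 genes did a treated library reach the DMSO range, and their calls held in each of the 17 alternative fits with a test.

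A further 4 cytosolic enzymes fell by less. LARS1, the leucine enzyme, was at 229, 226 and 234 CPM in DMSO and 121, 154 and 125 CPM in CCT068127 (-0.80 ± 0.11). EPRS1, the bifunctional glutamate and proline enzyme, was at 208, 192 and 182 CPM in DMSO and 109, 129 and 120.2 CPM in CCT068127 (-0.71 ± 0.10). TARS1, the threonine enzyme, was at 351, 294 and 296 CPM in DMSO and 198, 194 and 209 CPM in CCT068127 (-0.64 ± 0.10). In these genes the groups were apart too, with the treated libraries nearer to the DMSO range than in the first 8. QARS1, the glutamine enzyme, was at 207, 213 and 197 CPM in DMSO and 159.6, 158 and 133 CPM in CCT068127 (-0.46 ± 0.10). For LARS1 and EPRS1 the highest treated library was CCT068127 replicate 2, the shallowest one.

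VARS1, the valine enzyme (chromosome 6, 31777518 to 31795752), had the highest fold change of the cytosolic enzymes. It was at 94.1, 78.9 and 70.3 CPM in DMSO and 204, 136 and 182 CPM in CCT068127, and rose with a log2 fold change of 1.11 ± 0.15. All 3 treated libraries were above the DMSO libraries. Its mean TPM was 45.5 ± 6.605 in DMSO and 69.3 ± 13.6 in CCT068127 (SD, n = 3). The call was lost in 1 alternative, limma on log2(TPM + 1) without a filter (0.59, limma adjusted p = 0.0521). KARS1, the lysine enzyme of both compartments, was at 177, 184 and 173 CPM in DMSO and 216, 248 and 214 CPM in CCT068127 (0.34 ± 0.10), and FARSB, the beta subunit of the phenylalanine enzyme, at 39.3, 40.0 and 39.6 CPM in DMSO and 45.2, 60.6 and 45.9 CPM in CCT068127 (0.32 ± 0.12). Both passed as higher with TMM. With library totals they stood at 0.02 and 0.01, and in the limma fit of log2(TPM + 1) values, which has another unit, filter and test, at -0.15 and -0.17, with no call for either in both fits. The call of KARS1 was also lost without DMSO replicate 3 (0.29, edgeR adjusted p = 0.0731), and that of FARSB without any 1 library other than CCT068127 replicate 1 (0.18 to 0.37, edgeR adjusted p from 0.0582 to 0.127).

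The remaining 4 cytosolic enzymes did not pass. FARSA, the alpha subunit that pairs with FARSB, was at 90.5, 86.2 and 84.4 CPM in DMSO and 115, 79.97 and 95.4 CPM in CCT068127 (0.17 ± 0.13), with overlapping groups. The ratio of FARSA to FARSB in TPM was 2.80, 2.63 and 2.52 in DMSO and 2.97, 1.65 and 2.63 in CCT068127, with the 1 low value in the shallowest library. NARS1, the asparagine enzyme, was at 214, 181 and 182 CPM in DMSO and 159.8, 205 and 179 CPM in CCT068127 (-0.10 ± 0.12), and the groups overlapped. RARS1, the arginine enzyme, was at 95.5, 101 and 99.7 CPM in DMSO and 88.0, 105 and 106 CPM in CCT068127 (0.01 ± 0.10). HARS1, the histidine enzyme, was at 86.9, 88.7 and 85.3 CPM in DMSO and 82.9, 60.6 and 83.6 CPM in CCT068127 (-0.18 ± 0.12), where CCT068127 replicate 2 was low and the other treated libraries lay just under the DMSO range. With library totals, NARS1 (-0.41), RARS1 (-0.31) and HARS1 (-0.49) passed as lower, close to the -0.36 of the median gene in that fit.

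Ordered by TPM, the cytosolic enzymes changed places. In DMSO, SARS1 was the highest at 363 ± 48.6 TPM (SD, n = 3), followed by WARS1 at 275 ± 35.9, YARS1 at 271 ± 29.6 and AARS1 at 269 ± 30.1 TPM, and those last 3 did not differ beyond their spread. FARSB was the lowest at 39.6 ± 0.95 TPM. In CCT068127, KARS1 was the highest at 169.8 ± 15.7 TPM. Its place in DMSO was 9, at 188 ± 4.02 TPM, so its TPM did not rise, and its groups overlapped. After it came SARS1 at 123.2 ± 11.5, TARS1 at 112 ± 5.31 and NARS1 at 101 ± 14.2 TPM, and the spreads of SARS1, TARS1 and NARS1 overlapped. YARS1 was at 48.9 ± 3.49 TPM, place 14 of 19, and AARS1 at 57.0 ± 2.14 TPM, place 12. Between 14 and 15 of the 19 enzymes were above 100 TPM in a DMSO library, and between 3 and 5 in a CCT068127 library.

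**Figure D2:**
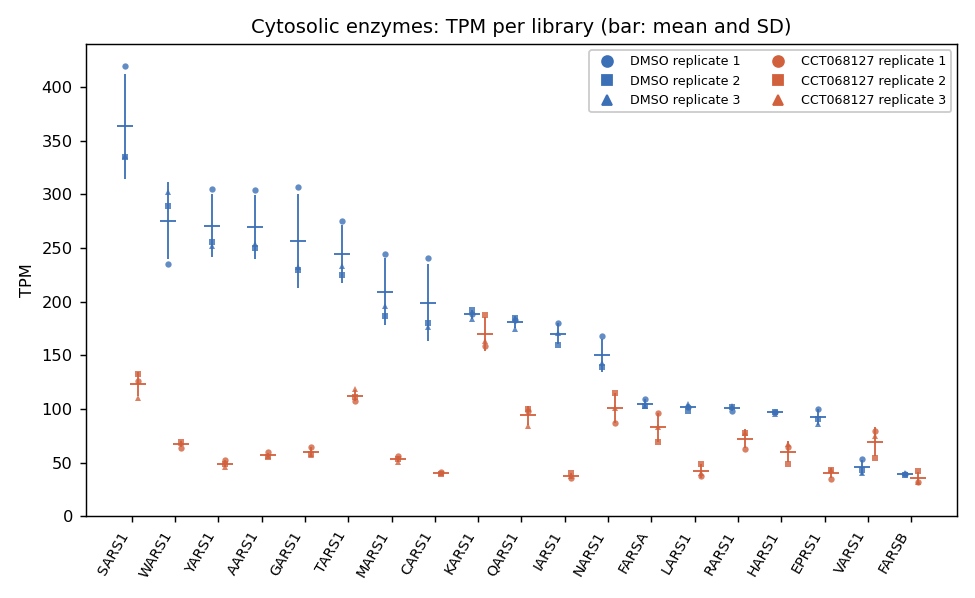
TPM of the 19 cytosolic enzymes in each library (y axis, linear from 0), ordered by the DMSO mean. Points are libraries and bars are mean and SD of 3 libraries. SARS1 leads in DMSO at 363 TPM, KARS1 leads in CCT068127 at 169.8 TPM, and VARS1 is the 1 gene whose treated mean lies above its DMSO mean.

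The cytosolic enzymes were also split by what is known of them, with the values already seen. The counts that follow stand beside 32.8% of all tested genes called lower and 31.9% called higher. Of the 13 cytosolic enzymes that textbooks and reviews describe as ATF4 targets, 11 fell, VARS1 rose and NARS1 did not pass (median -1.50). Of the other 6, QARS1 fell, FARSB and KARS1 rose, and FARSA, HARS1 and RARS1 did not pass (median 0.09). Of the enzymes of the multisynthetase complex 5 of 7 fell (EPRS1, IARS1, LARS1, MARS1 and QARS1; median -0.71), and 7 of 12 outside it (median -0.86). By catalytic class, 7 of 9 class I enzymes and 4 of 9 class II enzymes fell, with EPRS1, which holds a domain of each class, left out. The differences between these groupings were not tested.

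The promoters of the members were searched because 12 of the 19 cytosolic genes fell. RefSeq windows from 250 bases before to 50 after the start site (GRCh38.p14) matched 33 of the 38 members (16 cytosolic, 14 mitochondrial and 3 scaffold). AARS2, LARS1, VARS1, VARS2 and YARS1 had no entry. Some genes have several windows, and a gene was counted if any of them held the letters. The letters TGATGNAA, the core of the C/EBP-ATF response element, were found on either strand in 7 of 16 cytosolic windows (43.8%) and 1 of 14 mitochondrial windows (7.14%). Among all 27305 genes with a window the share was 4.46%, among the tested genes with a window 2.80%, and among those called lower at least 2-fold 4.65%. The matches are printed below with 11 bases on each side, 5′ to 3′ on the strand that reads TGATGNAA, with the match in capitals.
AARS1: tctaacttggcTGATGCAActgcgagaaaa
CARS1: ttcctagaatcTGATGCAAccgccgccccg
GARS1: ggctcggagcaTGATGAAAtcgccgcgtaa
IARS1: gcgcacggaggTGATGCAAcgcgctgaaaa
MARS1: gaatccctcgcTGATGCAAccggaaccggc
NARS1: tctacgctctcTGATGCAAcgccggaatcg
TARS1: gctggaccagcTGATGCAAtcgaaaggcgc
YARS2: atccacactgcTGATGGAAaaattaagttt

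Of these cytosolic genes 6 read TGATGCAA, and GARS1 reads TGATGAAA. On the gene's own strand the match began 4 bases before the start site in MARS1, 2 before it in CARS1, 3 after it in TARS1, 13 before it in IARS1, 15 after it in NARS1 and 33 before it in GARS1. In AARS1 it lay 187 bases upstream. Distances are to the RefSeq start site of the window with the match, which for GARS1 and TARS1 is not the outermost one and lies inside the gene's span. The printed stretches are at chr16:70289675-70289704 (AARS1, plus strand), chr11:3057407-3057436 (CARS1, plus), chr7:30594834-30594863 (GARS1, minus), chr9:92293692-92293721 (IARS1, plus), chr12:57488053-57488082 (MARS1, minus), chr18:57621804-57621833 (NARS1, minus), chr5:33440956-33440985 (TARS1, minus) and chr12:32756076-32756105 (YARS2, minus). AARS1, CARS1, GARS1, IARS1, MARS1 and TARS1 fell, whereas NARS1 and YARS2 did not pass. EPRS1, QARS1, SARS1 and WARS1 fell with no match in their windows. Of the other letters searched, CCGGAAG, the core of ETS factor sites, was in 9 of 16 cytosolic and 7 of 14 mitochondrial windows, beside 22.5% of tested genes. CACGTG, the E-box, was in 1 and 3 of them, beside 12.5%, and the palindromic NRF1 motif was in 0 and 1 (MARS2), beside 2.59%. A match is a description of the letters and shows no binding.

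Among the mitochondrial enzymes, 4 fell. WARS2, the tryptophan enzyme (chromosome 1, 119031216 to 119140672), was at 10.9, 11.1 and 11.3 CPM in DMSO and 4.69, 3.43 and 3.79 CPM in CCT068127, a log2 fold change of -1.43 ± 0.19. SARS2, the serine enzyme (chromosome 19, 38915266 to 38930763), was at 12.8, 12.7 and 11.1 CPM in DMSO and 7.13, 2.86 and 6.15 CPM in CCT068127 (-1.06 ± 0.22). Both were apart from the DMSO range, on few counts: the treated libraries held 23, 6 and 16 counts of WARS2 and 35, 5 and 26 of SARS2. NARS2, the asparagine enzyme, was at 77.1, 63.2 and 56.9 CPM in DMSO and 38.5, 38.3 and 35.7 CPM in CCT068127 (-0.82 ± 0.13). PARS2, the proline enzyme, was at 6.995, 7.80 and 7.62 CPM in DMSO and 5.50, 5.71 and 4.50 CPM in CCT068127 (-0.53 ± 0.20). The call of PARS2 was lost in 7 of the 17 alternative fits with a test, among them the fits without DMSO replicate 2 (-0.51), DMSO replicate 3 (-0.55) or CCT068127 replicate 3 (-0.43), with edgeR adjusted p from 0.0638 to 0.123 in those 3.

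TARS2, the mitochondrial threonine enzyme, was the 1 member of its group that rose, from 21.8, 21.9 and 20.8 CPM in DMSO to 39.7, 29.1 and 38.3 CPM in CCT068127 (0.76 ± 0.13). The groups did not overlap. On log2(TPM + 1) values it stood at 0.23 with no call. Its cytosolic counterpart TARS1 fell, so the threonine enzymes were called in opposite directions with TMM.

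The other 11 mitochondrial enzymes had log2 fold changes between -0.31 and 0.25 and no call. IARS2, the isoleucine enzyme and the highest of its group, was at 139, 134 and 134 CPM in DMSO and 143, 155 and 138 CPM in CCT068127 (0.10 ± 0.09). AARS2, the alanine enzyme, was at 16.3, 16.9 and 16.6 CPM in DMSO and 19.97, 19.99 and 18.9 CPM in CCT068127 (0.24 ± 0.12), with the treated libraries just above. HARS2, the histidine enzyme, was at 39.5, 46.0 and 46.4 CPM in DMSO and 34.0, 33.7 and 40.5 CPM in CCT068127 (-0.27 ± 0.12). For HARS2, CCT068127 replicate 3 lay just above DMSO replicate 1, and HARS2 passed as lower without either of these libraries (-0.38 and -0.37). FARS2, the phenylalanine enzyme, was at 9.30, 9.98 and 10.004 CPM in DMSO and 9.17, 6.85 and 6.86 CPM in CCT068127 (-0.31 ± 0.18), and it passed as lower without CCT068127 replicate 1 (-0.53). VARS2, the valine enzyme, was at 32.5, 32.9 and 34.8 CPM in DMSO and 44.0, 40.0 and 34.3 CPM in CCT068127 (0.25 ± 0.12), and it passed as higher without CCT068127 replicate 3 (0.34). HARS2 and FARS2 also passed as lower with library totals (-0.58 and -0.63), and VARS2 did not pass as higher in any other alternative.

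For the rest the groups overlapped. CARS2, the cysteine enzyme, was at 25.6, 27.6 and 27.9 CPM in DMSO and 33.6, 22.8 and 24.4 CPM in CCT068127. EARS2, the glutamate enzyme, was at 29.1, 33.9 and 32.4 CPM in DMSO and 29.8, 29.7 and 36.0 CPM in CCT068127. LARS2, the leucine enzyme, was at 20.9, 24.4 and 21.8 CPM in DMSO and 22.4, 20.6 and 24.6 CPM in CCT068127. Their fitted changes were 0.04, 0.01 and 0.02, each smaller than its SE of 0.13 to 0.15. MARS2, the methionine enzyme, was at 8.25, 7.14 and 8.36 CPM in DMSO and 9.99, 6.28 and 8.99 CPM in CCT068127. RARS2, the arginine enzyme, was at 35.2, 34.6 and 32.6 CPM in DMSO and 29.1, 34.8 and 29.6 CPM in CCT068127. YARS2, the tyrosine enzyme, was at 33.4, 29.4 and 34.3 CPM in DMSO and 32.6, 20.6 and 34.6 CPM in CCT068127. CCT068127 replicate 2 was the lowest library for MARS2 and YARS2. With library totals in place of TMM, 7 of the 16 mitochondrial enzymes passed as lower and 1 as higher. Of all 13597 genes in that fit 6567 (48.3%) were lower and 3006 higher. In the limma fit of log2(TPM + 1) values 12 passed as lower and 0 as higher. Of all 14394 genes in that fit 7475 (51.9%) were lower and 2476 higher. The median gene stood at -0.46 there, and unit, filter and test differ too.

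**Figure D3:**
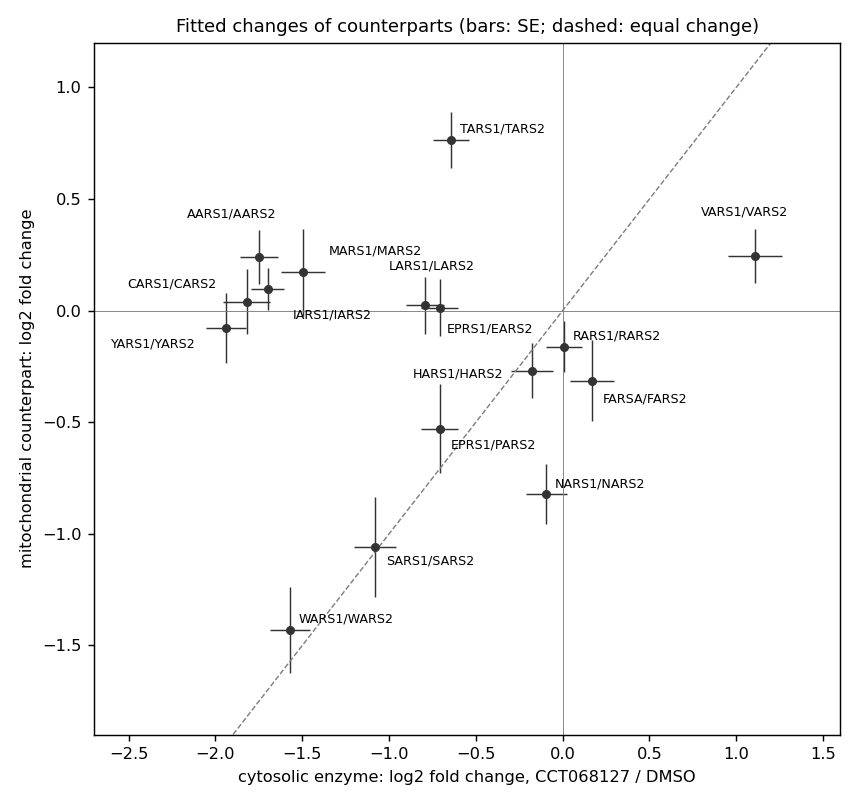
Fitted log2 fold change (edgeR, TMM, CCT068127 over DMSO) of each cytosolic enzyme (x axis) against its mitochondrial counterpart for the same amino acid (y axis), with bars of 1 SE and a dashed line of equal change. WARS1 with WARS2 and SARS1 with SARS2 lie near the line, and YARS1, CARS1, AARS1, IARS1 and MARS1 lie far to its left with counterparts near 0.

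Ratios of TPM between counterparts compare the compartments for 1 amino acid within a library. Of 16 such pairs, in which EPRS1 appears with both EARS2 and PARS2, the ratio of cytosolic to mitochondrial transcript was lower in every treated library than in any DMSO library for 8, higher for 3, and overlapped for 5. The alanine pair had the largest shift, with AARS1 41.3, 33.6 and 34.6 times the level of AARS2 in DMSO and 9.62, 7.89 and 8.82 times in CCT068127. The isoleucine pair changed order. IARS1 was 2.14, 2.016 and 2.09 times the level of IARS2 in DMSO, and 0.589, 0.595 and 0.620 times in CCT068127. CARS1 went from 8.30, 5.87 and 5.52 times CARS2 in DMSO to 1.49, 2.11 and 1.93 times in CCT068127. YARS1 went from 9.02, 8.75 and 7.30 times YARS2 to 2.27, 3.51 and 1.83 times.

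Pairs in which both members moved alike kept their ratio within the spread. WARS1 was 28.6, 34.7 and 37.3 times WARS2 in DMSO and 27.6, 33.5 and 32.7 times in CCT068127, and here both genes fell. SARS1 was 28.9, 23.7 and 26.6 times SARS2 in DMSO and 22.5, 56.9 and 22.02 times in CCT068127, where the high value rests on the 5 counts of SARS2 in replicate 2. The histidine, arginine and EPRS1 to PARS2 ratios overlapped as well. The ratio was higher in all treated libraries for NARS1 to NARS2 (2.19, 2.24 and 2.56 in DMSO, 3.11, 4.43 and 4.37 in CCT068127), VARS1 to VARS2 (2.73, 2.24 and 1.94, then 4.30, 3.07 and 5.11) and FARSA to FARS2 (9.24, 8.25 and 8.21, then 11.4, 10.8 and 13.1). For asparagine, the mitochondrial enzyme fell with TMM and the cytosolic enzyme did not pass. In TPM both means were lower in CCT068127, NARS2 at 64.8 in DMSO and 25.6 in CCT068127, and NARS1 at 149.8 and 100.8. On log2(TPM + 1) values NARS1 passed as lower (-0.57, limma adjusted p = 0.00458).

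**Figure D4:**
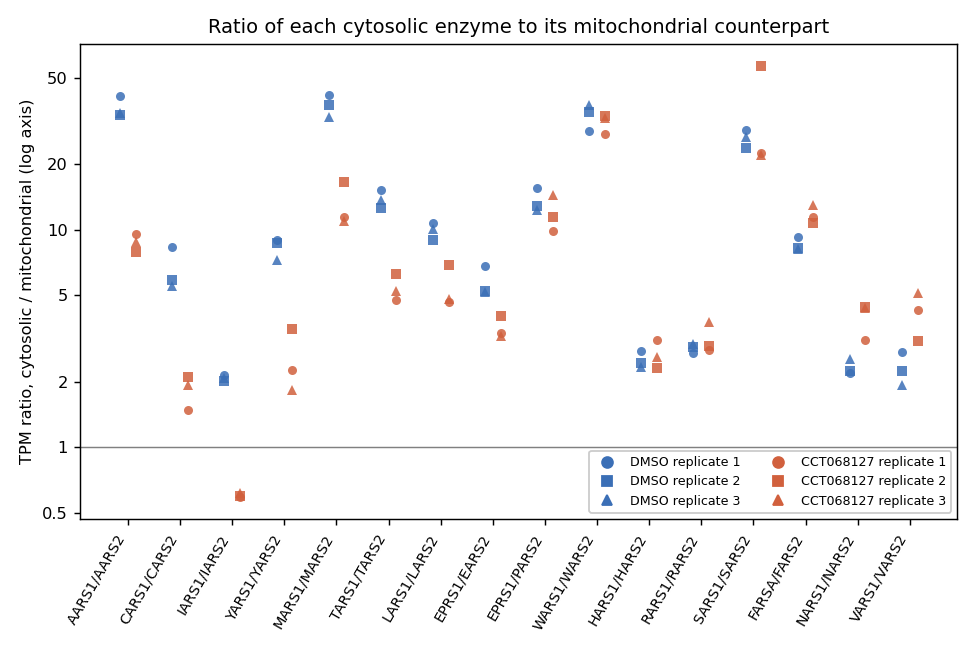
TPM of each cytosolic enzyme over TPM of its mitochondrial counterpart in each library (y axis, log scale), ordered by the size of the shift. The grey line marks equal levels. The IARS1 to IARS2 ratio lies above the line in all DMSO libraries and below it in all CCT068127 libraries.

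Of the 3 scaffold proteins 2 rose, beside 31.9% of all tested genes called higher, and 1 did not pass. Among the enzymes of the complex, 5 of 7 fell, KARS1 rose and RARS1 did not pass. AIMP1, which has a tRNA-binding domain and sits in the complex, rose from 41.9, 40.6 and 40.0 CPM in DMSO to 63.6, 90.8 and 81.2 CPM in CCT068127 (0.92 ± 0.13). AIMP2, the core scaffold, rose from 20.8, 20.8 and 20.2 CPM to 37.9, 36.6 and 30.8 CPM (0.76 ± 0.12). In both genes every treated library was above every DMSO library. EEF1E1, which encodes AIMP3, was at 24.0, 20.9 and 19.1 CPM in DMSO and 15.5, 14.3 and 20.6 CPM in CCT068127 (-0.34 ± 0.16), with no call and overlapping groups. Without CCT068127 replicate 3 EEF1E1 passed as lower (-0.53). It also did so with library totals (-0.64) and without a low-count filter (-0.58). The same held for limma on log2(TPM + 1), filtered or not (-0.69), and on log2(TPM + 0.1) (-0.71). The call of AIMP1 was lost for limma on log2(TPM + 1) without a filter (0.49, limma adjusted p = 0.0548).

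Within the DMSO group, replicate 1 differed most from the others over all genes. Chi-square per degree of freedom on thinned counts was 5.98 and 6.68 against replicates 2 and 3, and 1.91 between those. DMSO replicate 1 was above the mean of DMSO replicates 2 and 3 for 13 of the 19 cytosolic enzymes, with a median log2 difference of 0.15, for 7 of the 16 mitochondrial enzymes (median -0.04), and for 6905 of 13593 tested genes (median 0.00). The largest differences were 0.42 for CARS1, 0.40 for GARS1 and, among the mitochondrial enzymes, 0.36 for NARS2. WARS1 went the other way at -0.34. All of the cytosolic differences lay inside the 5% to 95% range of all tested genes, -0.43 to 0.53. DMSO replicates 2 and 3 differed by at most 0.17 in a cytosolic enzyme (VARS1), although 1 was sequenced deeply and the other was shallow. Without DMSO replicate 1 the cytosolic enzymes that fell numbered 12, as with it, and their median was -0.68.

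In a list of 24 other genes of tRNA charging and handling, 6 rose (25%, beside 31.9% of all tested genes) and 5 fell (20.8%, beside 32.8%), with a median of -0.01. PTRH2, a peptidyl-tRNA hydrolase, rose by 0.90 and HSD17B10, a subunit of mitochondrial RNase P, by 0.69. The call of HSD17B10 did not hold in every alternative fit, and HSD17B10 stood at 0.18 on log2(TPM + 1) values. XPOT, the exporter of tRNA from the nucleus, was at 274, 229 and 219.8 CPM in DMSO and 56.0, 76.0 and 61.3 CPM in CCT068127, and fell by 1.93 on the log2 scale, about as far as YARS1.

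Of 27 cytosolic translation factors 11 rose (40.7%) and 9 fell (33.3%), with a median of 0.10, and these shares lie near those of all tested genes. EIF5A rose by 1.33, EIF4G1 by 1.01 and EIF2S1, a subunit of eIF2, by 0.76, and EIF1 fell by 1.06 on the log2 scale. The adjusted p of EIF2S1 reached 0.0866 among the alternatives. EEF1A1, which brings charged tRNA to the cytosolic ribosome, fell by 0.78 and EEF2, which moves the tRNA through it, by 0.99 on the log2 scale. Both were named after their values had been seen, and EEF1A1 has many processed pseudogenes that could share its reads. Of 13 mitochondrial translation factors 4 rose and 4 fell (30.8% each, median -0.11). Among them were TUFM (0.71), the elongation factor that delivers charged tRNA in mitochondria, and LRPPRC (-0.69), which stabilises mitochondrial mRNA. The call of TUFM did not hold in every alternative fit, and TUFM stood at 0.21 on log2(TPM + 1) values.

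The ATF4 list had 12 of 16 members lower and 0 higher (median -1.15), beside the 32.8% of all tested genes called lower. This list, too, was known to be lowered in these libraries when it was written. ATF4 was at 879, 794 and 798 CPM in DMSO and 280.2, 290.2 and 291 CPM in CCT068127 (-1.52 ± 0.09). ASNS (-3.19), which makes asparagine, and CHAC1 (-3.37), a glutathione-degrading enzyme, fell further than any synthetase. The part of ATF4 in the lower synthetase transcripts was not tested.

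Several members share exons with another gene in GENCODE release 29. No source used here states whether counting used strand, so reads of overlapping genes may be mixed. Exon overlap on the opposite strand was found for 18 of the 38 members and on the same strand, where strand would not help, for 7. For MARS1, QARS1 and TARS2 the same-strand gene was a microRNA gene sharing 61 to 66 bases, with 0 counts in every library. VARS2 shares 1858 exon bases with GTF2H4 on the same strand, and GTF2H4 held 108, 15 and 62 counts in the treated libraries. SARS2 shares 1492 with AC011455.2, EEF1E1 393 with the readthrough gene EEF1E1-BLOC1S5 and HARS2 152 with ZMAT2. On the opposite strand, MARS1 shares 355 exon bases with DDIT3, which also fell, though its counts were at most 11141 beside 131748 for MARS1 in the same library. SARS2 shares 349 bases with MRPS12, whose counts (48 to 249 in the treated libraries) were above those of SARS2. AIMP2 shares 532 bases with EIF2AK1 and AIMP1 387 bases with TBCK. HARS1 and HARS2 lie head to head on chromosome 5, with HARS1 ending at 140691370 and HARS2 starting at 140691455, and in GENCODE their exons share 437 bases. Their part in the values was not tested.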

How the data were processed

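The authors deposited estimated counts and TPM for 38557 gene symbols in 6 libraries, in 2 tables, with the estimated counts as whole numbers. The submitters' processing notes name RSEM, Bowtie and hg38, with no version or role. No source used here names the annotation or the strand setting. In each library 27 to 203 genes were listed with 0 counts although their TPM was above 0.

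The members and lists were chosen with earlier results of these data known. All members are named with their values. From the other lists the text takes at most 3 called genes in the commoner direction and 1 in the opposite one, ranked by adjusted p. Some genes that this rule takes are not reported here. Counts were fitted in R 4.3.3 with edgeR 4.0.16 over the whole table: filterByExpr (minimum count 10), TMM, the quasi-likelihood test with treatment as the term, Benjamini-Hochberg adjustment over 13597 genes, and calls at an adjusted p under 0.05. An SE is the size of the log2 fold change over the square root of F. Alternatives were other scalings, no filter, a replicate block, DESeq2 1.42.0, limma 3.58.1 (voom, or trend on log2(TPM + 1) or log2(TPM + 0.1), filtered at 1 TPM in 3 libraries or unfiltered), thinning of the deep DMSO libraries to the depth of DMSO replicate 3, that replicate as the sole control, and leaving out each library. Mean log2 CPM values used an offset of 0.5. The fit was tested on simulated data. A count of 0 allows up to 3 counts, which is 0.504 to 1.53 CPM in the shallow libraries and at most 0.00809 CPM in the deep ones. Libraries of 1 group differed by more than counting noise (chi-square per degree of freedom 1.91 to 8.36).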

Additional observations from a re-analysis of the deposited data

How the results depend on the processing

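The 12 cytosolic enzymes that fell kept their call in all 17 alternatives with a test, and 12 to 16 cytosolic enzymes were lower in these. The cytosolic median, -0.71 with TMM, was -1.02 with library totals, -0.95 without a low-count filter, and -1.18, -1.20 and -1.18 for limma on log2(TPM + 1), log2(TPM + 0.1) and unfiltered log2(TPM + 1). Set against the median of all genes it ranged from -0.73 to -0.62. Mitochondrial enzymes called lower, 4 with TMM, were 7 with library totals, 7 without a filter, and 12, 12 and 10 in the 3 TPM fits. Of all tested genes, 32.8% were lower with TMM, 48.3% with library totals and 21.6% without a filter. In the 3 TPM fits the shares were 51.9%, 50.7% and 26.3%. The fits without a filter took in more genes, 29138 for counts and 27872 for TPM. Mitochondrial enzymes called higher, 1 with TMM, were 0, 0 and 0 in the TPM fits. The mitochondrial median, -0.03 with TMM, was 0.0045 with DESeq2 size factors, -0.34 with library totals, -0.28 without a filter, and -0.54, -0.57 and -0.54 in the TPM fits. Leaving out each library gave 1 to 2 mitochondrial enzymes called higher, the 2 being without CCT068127 replicate 3, and a mitochondrial median of -0.16 (without CCT068127 replicate 1) to 0.022 (without CCT068127 replicate 2). The cytosolic enzymes called higher, 3 with TMM, were 1 with library totals, 1 without a filter, 1, 1 and 0 in the TPM fits, and 1 to 3 with a library left out, the 1 being without DMSO replicate 3, where KARS1 and FARSB lost their calls. Turning direction with a call in at least 1 of the fits, on log2(TPM + 1) and log2(TPM + 0.1) in turn, were FARSA (-0.35, -0.35), FARSB (-0.17, -0.18), KARS1 (-0.15, -0.15), RARS1 (-0.48, -0.48), CARS2 (-0.46, -0.47), EARS2 (-0.48, -0.51), IARS2 (-0.38, -0.39) and LARS2 (-0.35, -0.39). Without the TPM filter FARSB (-0.17), KARS1 (-0.15), RARS1 (-0.48), EARS2 (-0.48), IARS2 (-0.38) and LARS2 (-0.35) turned too, as did RARS1 with library totals (-0.31). The causes were not tested. No pairing by replicate number was visible in the values (correlations of deviations 0.05, -0.01 and 0.04), which does not exclude that samples were paired. With the replicate block, 12 cytosolic enzymes were lower and 2 higher, 3 mitochondrial enzymes were lower and 1 higher, and 8297 genes were called in all, beside 8793 without it. Of the members' counts 12 were under 30, all in CCT068127 libraries. With the deep DMSO libraries thinned, 12 cytosolic and 4 mitochondrial enzymes were lower.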
